A study of Mus musculus with 11 samples.

Results

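The extracellular matrix of the islet was followed here through 34 stromal, matrix and basement membrane genes, chosen by name from what the proteins are known to be. They comprised 5 fibrillar collagens, 3 chains of collagen VI, 4 basement membrane collagens, 6 laminin chains, 3 genes for nidogens and perlecan, 7 matrix glycoproteins and proteoglycans, and 6 mesenchymal receptors and contractile genes. Of these, 33 had a row among the 19329 gene IDs of the series and *Tagln* had none. RNA was sequenced in bulk from whole pancreatic islets of male C57BL/6N mice 14 weeks old, fed regular chow, in 6 wild-type libraries and in 5 made from mice with a proline to threonine change on both alleles, at residue 33 of the transcription factor PDX1 (PDX1 P33T/P33T). The mutation is a germline change of the endogenous gene, so all cells of the islet carry it, and the islets of both genotypes were cultured after isolation and received no treatment. Each library may stand for more than 1 mouse, and every n and SD counts libraries. *Pdx1* itself stood between 77.9 and 80 FPKM in the PDX1 P33T/P33T libraries, where FPKM is the number of fragments scaled to the length of the transcript and the size of the library.

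Pancreatic islets are wrapped and penetrated by a basement membrane, a thin sheet in which a network of type IV collagen is tied to a network of laminins by nidogens and the proteoglycan perlecan. In the mouse islet this sheet lies along the capillaries and is made largely by the endothelial cells, with pericytes on its outer face, while beta cells touch it through integrins. The interstitial matrix is a different structure, built of fibrillar collagens I, III and V with collagen VI, fibronectin and small proteoglycans, and is made mainly by fibroblasts and stellate cells of the surrounding tissue that can stay attached to isolated islets.

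The wild-type values limit what can be compared. In the table of the series most wild-type values stood on the rows of other genes, whereas the PDX1 P33T/P33T values stood on their own, so levels in the mutant are given for 33 genes and a difference between genotypes for 19. For 5 of the 19 (*Col5a2*, *Col6a3*, *Lamb2*, *Postn* and *Cspg4*) the wild-type row was known from a list of reads that begins with the genes that differ most between the genotypes. Being found there was therefore a selection on the difference itself. For the other 14 the row was found by gene length and level, which cannot place a gene whose means differ by more than 4-fold. The 14 genes with a mutant level and no wild-type row were *Col6a1*, *Col6a2*, *Col18a1*, *Lama4*, *Lamc1*, *Nid1*, *Fbn1*, *Lum*, *Bgn*, *Sparc*, *Pdgfra*, *Pdgfrb*, *Acta2* and *Rgs5*. Wild-type replicates 2 and 3 stood apart from the other wild-type libraries in these genes, and differences are given with and without them. A read on a transcript of 1 kb was worth between 0.0270 and 0.0518 FPKM across the 11 libraries.

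*Col4a1* and *Col4a2*, which encode the 2 chains of the most common type IV collagen, are a gene pair read in opposite directions from a shared promoter. The short stretch at their starts is shown to describe the pair, and its part in their levels was not tested. The stretch lies at chr8:11312801-11312830 in the RefSeq annotation of GRCm38.p6, a build other than that of the series. Capitals mark the 22 bases from the start of *Col4a2* (plus strand, 11312805) to that of *Col4a1* (minus strand, 11312826). By these starts the 2 transcripts overlap there, so the capitals are the first bases of both and not sequence before them.
*Col4a2* strand (plus): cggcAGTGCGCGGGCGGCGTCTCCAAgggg
*Col4a1* strand (minus): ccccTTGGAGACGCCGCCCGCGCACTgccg
On the plus strand the capitals hold the GC box letters GGGCGG. In the 250 bases before the start, on either strand, GGGCGG stood in 12 of the 24 genes of the group with a RefSeq promoter entry (50%, against 35.4% of 27025 genes), CCAAT in 7 (29.2% against 37.5%) and TATAAA in 2, *Col3a1* and *Postn* (8.33% against 14.3%). A match describes the letters only.

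In the PDX1 P33T/P33T islets the type IV collagen chains stood above the fibrillar collagens and collagen VI, but basement membrane and interstitial genes overlapped in level. Of the interstitial genes, *Bgn*, the small proteoglycan biglycan, stood at 2.32 FPKM, *Col6a3* at 1.81 and *Col6a1* at 1.49 FPKM. Of the basement membrane genes, *Hspg2* stood at 1.55, *Lamb2* at 0.804 and *Lama5* at 0.439 FPKM. Per length of transcript, the highest of the 33 genes was *Sparc*, a collagen-binding glycoprotein made by endothelial and other stromal cells, with 45.3 ± 10.9 FPKM (SD, n = 5). *Col4a1* followed with 21.1 ± 7.04 FPKM and *Col4a2* with 18.9 ± 7.58 FPKM, and these 3 were the only genes of the group above 10 FPKM. *Sparc* lay above both collagen chains in each library, and *Col4a1* lay above *Col4a2* in each.

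A further 14 genes had mean levels from 1 to 10 FPKM. Among the pericyte genes, *Rgs5*, a regulator of G protein signalling, stood at 6.01 ± 1.25 FPKM and *Pdgfrb*, the PDGF receptor of pericytes, at 3.60 ± 1.35 FPKM. The laminin chains *Lamc1*, *Lamb1* and *Lama4* stood at 5.72 ± 1.76, 3.53 ± 1.47 and 1.69 ± 0.593 FPKM. Together with the nidogens *Nid1* at 4.89 ± 1.54 and *Nid2* at 2.86 ± 1.14 FPKM, the chains of the endothelial laminin with the alpha 4 chain were thus all present, whereas *Lama2*, the alpha 2 chain of muscle and nerve, was near the limit with 0.0475 ± 0.0111 FPKM on 116 reads over the 5 libraries.

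Genes that define fibroblasts were low. *Pdgfra*, the PDGF receptor of fibroblasts, had 27 reads in all 5 mutant libraries together and levels of 0.0111, 0.0420, 0.0155, 0.00810 and 0.0189 FPKM in replicates 1 to 5. *Lum*, the small proteoglycan lumican, had 41 reads and *Dcn*, decorin, 152 reads. The fibrillar collagens stood above these and below *Col4a1* and *Col4a2*, with *Col1a1* at 1.07 ± 0.416 FPKM and *Col1a2* at 0.539 ± 0.0824 FPKM. *Acta2*, smooth muscle actin, stood at 0.823 ± 0.325 FPKM. The pericyte genes *Rgs5* and *Pdgfrb* thus stood above all of these. *Cspg4*, also of pericytes, was low with 0.437 ± 0.173 FPKM, and *Tagln* of contractile cells had no row. Of the fibroblast genes, *Pdgfra*, *Lum* and *Dcn* were near 0, whereas *Col1a1* and *Col3a1* had 975 and 971 reads. For scale, the 6 endocrine genes measured (*Ins1*, *Ins2*, *Gcg*, *Sst*, *Ppy* and *Chga*) summed to between 236300 and 303900 FPKM in the same libraries.

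**Figure D1:**
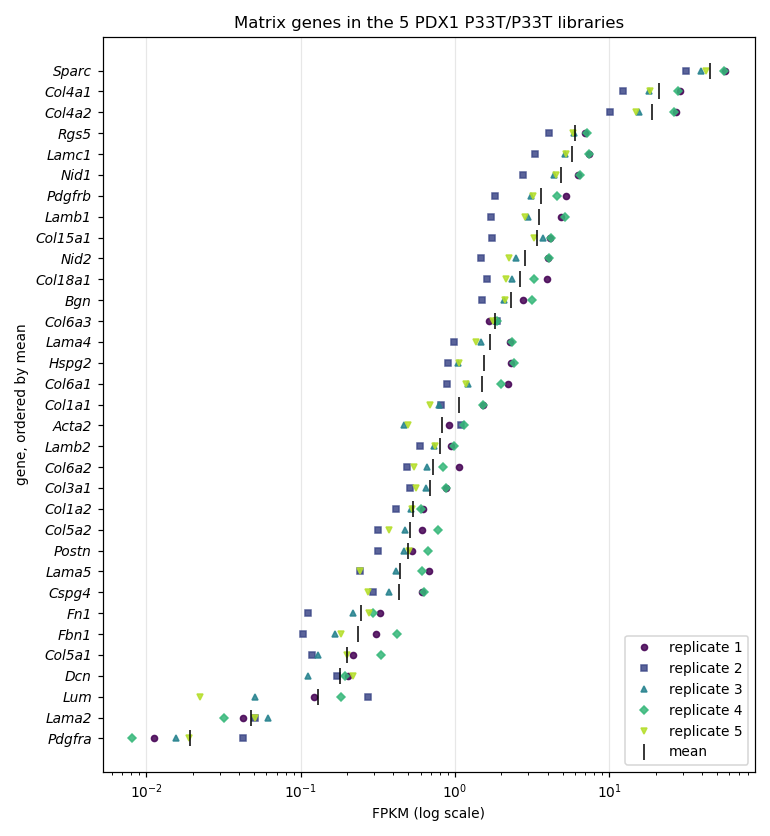
FPKM (log axis) of the 33 genes in each of the 5 PDX1 P33T/P33T libraries, ordered by the mean (black bar), 1 marker shape per library. Sparc, Col4a1 and Col4a2 stand above 10 FPKM, Pdgfra at 0.0191 FPKM is lowest, and squares (replicate 2) lie at the left of most rows.

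The 5 mutant libraries differed from each other along the whole group. Of the 33 genes, 28 were highest in replicate 1 or 4, and 24 were lowest in replicate 2. Over the 17600 genes above 0 in each mutant library, replicate 2 was lowest for 33.3% and replicates 1 and 4 were highest for 19.6% and 19.3%. *Nid1* gave 6.31, 2.75, 4.43, 6.47 and 4.51 FPKM in replicates 1 to 5, *Lamc1* gave 7.45, 3.30, 5.18, 7.45 and 5.24 FPKM, and *Pdgfrb* gave 5.26, 1.81, 3.12, 4.59 and 3.23 FPKM. The same order of libraries thus appeared in a linker protein, a laminin chain and a pericyte receptor, with replicates 1 and 4 at the top and replicate 2 at the bottom.

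The median of the 33 means was 1.07 FPKM with all 5 mutant libraries and 1.13 FPKM without replicate 2. Exceptions were few. *Col6a3*, *Lum* and *Pdgfra* were highest in replicate 2, *Lama2* in replicate 3 and *Dcn* in replicate 5, and except for *Col6a3* these were genes with few reads. *Col6a3*, the long chain of collagen VI, hardly varied at all, with 1.68, 1.89, 1.84, 1.87 and 1.77 FPKM, a 1.13-fold range. Its partner chains varied more, *Col6a1* over 2.48-fold (0.885 to 2.20 FPKM) and *Col6a2* over 2.18-fold (0.491 to 1.07 FPKM). All 3 chains are joined in 1 protein. *Col6a1* divided by *Col6a2* ranged from 1.80 to 2.38 over the mutant libraries, so those 2 chains moved together and *Col6a3* departed from them.

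Endothelial markers followed the same order. The 6 endothelial markers summed to 137.2, 64.2, 103.8, 143.3 and 104.5 FPKM in replicates 1 to 5, and *Cdh5*, the VE-cadherin that joins endothelial cells, stood at 21.3, 9.09, 14.5, 22.4 and 14.4 FPKM. Divided by *Cdh5* of the same library, *Nid1* ranged only from 0.289 to 0.313 although its level ranged over 2.35-fold, *Lamc1* from 0.333 to 0.363 (level over 2.26-fold) and *Lama4* from 0.0950 to 0.108 (level over 2.38-fold). *Pdgfrb* ranged from 0.199 to 0.247 and *Col18a1*, the precursor of endostatin, from 0.146 to 0.185. Other genes followed *Cdh5* less closely. *Sparc* divided by *Cdh5* ranged from 2.5 to 3.46 (level over 1.81-fold) and *Rgs5* from 0.323 to 0.45 (level over 1.77-fold), both highest in replicate 2. *Hspg2* ranged from 0.0724 to 0.109 and *Col15a1* from 0.187 to 0.259. Replicate 2 also held the most acinar RNA, with 8 acinar markers summing to 91.4 FPKM against 7.98 to 17.4 FPKM in the other mutant libraries. In bulk RNA, fewer cells of a type and less RNA per cell cannot be told apart, and the part of endothelial or acinar RNA in these levels was not tested.

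The wild-type libraries spread further than the mutant ones and in 2 distinct directions. All 19 genes compared had a larger SD of log2(FPKM + 0.1) in wild-type than in PDX1 P33T/P33T, against 59.5% of all 4726 genes compared. The median SD of the 19 on this scale was 0.85 in wild-type and 0.43 in mutant, where the medians over all genes were 0.23 and 0.21. Without wild-type replicates 2 and 3 the median SD of the 19 in wild-type was 0.42 and 11 of them kept the larger SD there. Wild-type replicate 2 was highest of its group for 8 genes and replicate 3 for the other 11, although these libraries were highest for 13.4% and 32.5% of all genes. No gene of the group was highest in any of the remaining 4 wild-type libraries, and replicate 1 was lowest for 13 of the 19.

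**Figure D2:**
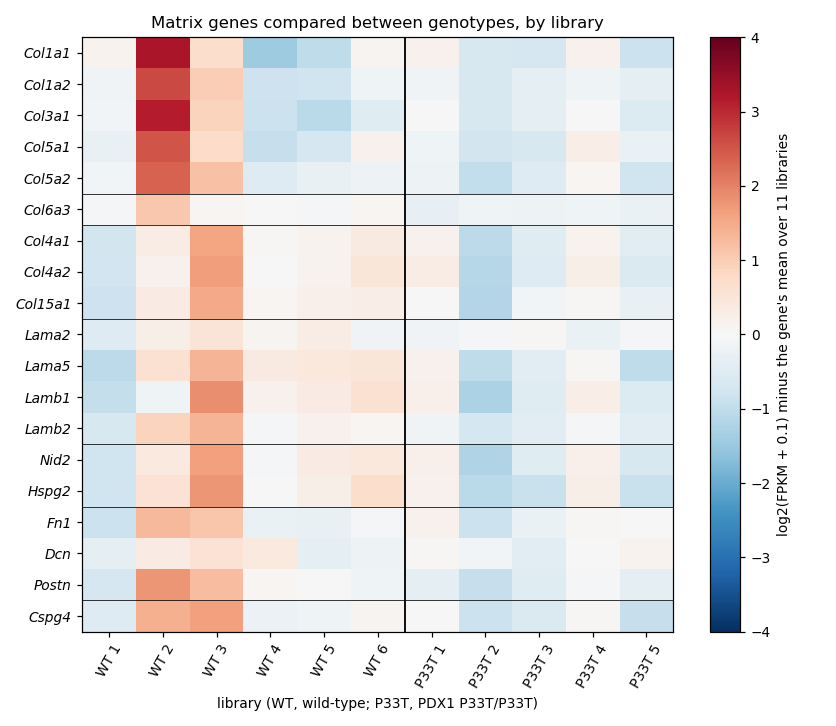
Level of each of the 19 genes compared, as log2(FPKM + 0.1) minus the gene's mean over 11 libraries, with wild-type (WT) libraries left and PDX1 P33T/P33T (P33T) libraries right of the vertical line and horizontal lines between roles. Red cells gather in WT 2 for fibrillar collagens and in WT 3 for basement membrane genes, and P33T 2 is blue for most genes.

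All 5 fibrillar collagens compared peaked in wild-type replicate 2. *Col1a1*, the main chain of collagen I, gave 1.49, 13.6, 2.23, 0.435, 0.612 and 1.45 FPKM in wild-type replicates 1 to 6 and 1.52, 0.815, 0.794, 1.52 and 0.686 FPKM in the mutant replicates 1 to 5. Wild-type replicate 2 was thus 9.43 times the median of the other 5 wild-type libraries, whereas the mutant libraries all lay within the range of those 5. *Col3a1*, collagen III, reached 8.33 FPKM in wild-type replicate 2 against 0.359 to 1.69 FPKM in the other wild-type libraries, a factor of 14.3 over their median, and 0.511 to 0.875 FPKM in the mutant. For *Col1a2*, *Col5a1* and *Col5a2* the factors were 8.11, 10.03 and 6.75. Replicate 3 was second highest in wild-type for each of the 5.

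Between genotypes the fibrillar collagens overlapped. Their log2 fold changes (mutant over wild-type, on the log2(FPKM + 0.1) scale) were −0.67 for *Col1a1*, −0.61 for *Col1a2*, −0.55 for *Col3a1*, −0.57 for *Col5a1* and −0.88 for *Col5a2*, with standard errors from 0.47 to 0.66. None passed limma's test, with Benjamini-Hochberg adjusted p from 0.77 to 1. Without wild-type replicate 2 the value of *Col1a1* was −0.07 and that of *Col3a1* was 0.03, and without replicates 2 and 3 together 4 of the 5 lay above 0, from 0.12 to 0.33, with *Col5a2* at −0.20. The sign of the fibrillar collagen difference therefore rested on those libraries. They were the 2 highest wild-type libraries for each of the 5, so leaving them out could only raise the values.

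The fibrillar collagens were joined in wild-type replicate 2 by *Col6a3*, *Fn1* and *Postn*. *Col6a3* gave 2.05, 4.64, 2.28, 2.17, 2.03 and 2.24 FPKM in wild-type and the 1.68 to 1.89 FPKM given above in the mutant, so that the groups did not overlap. *Fn1*, fibronectin, reached 0.836 FPKM there and 0.714 FPKM in replicate 3, against 0.110 to 0.257 FPKM in the other 4, and 0.112 to 0.328 FPKM in the mutant. *Postn*, periostin of the collagen-rich stroma, gave 2.60 FPKM in replicate 2 and 1.77 FPKM in replicate 3 against 0.404 to 0.740 FPKM in the others and 0.320 to 0.672 FPKM in the mutant.

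Wild-type replicate 2 stood apart for other cell markers as well. The 3 macrophage markers with a wild-type row (*Cd68*, *Csf1r* and *Adgre1*) summed to 57.4 FPKM there and 55.4 FPKM in replicate 3, against 22.1 to 30.6 FPKM in the other wild-type libraries and 17.2 to 27.4 FPKM in the mutant. *Cryab*, a small heat shock protein listed as a marker of Schwann cells, the glia of nerve sheaths, stood at 13.9 FPKM in replicate 2 against 2.55 to 4.90 FPKM in the other wild-type libraries and 1.93 to 3.52 FPKM in the mutant. Endothelial markers were not high in replicate 2, where *Cdh5* was 14.9 FPKM, second lowest of the wild-type libraries. The part of these cells in the collagen values was not tested.

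The basement membrane genes peaked in another library, wild-type replicate 3. *Col4a1* gave 15.2, 31.5, 75.9, 26.1, 28.3 and 32.7 FPKM in wild-type replicates 1 to 6 and 28.6, 12.2, 18.2, 28.0 and 18.4 FPKM in the mutant replicates 1 to 5. *Col4a2* gave 13.0, 25.2, 70.6, 22.4, 24.4 and 31.0 FPKM and 27.3, 10.1, 15.7, 26.4 and 15.0 FPKM. Replicate 3 was 2.69 and 2.89 times the median of the other wild-type libraries, and the ranges of the 2 genotypes overlapped. *Col15a1*, a collagen that bridges basement membrane to stroma, stood at 11.7 FPKM in wild-type replicate 3, 2.24 to 5.09 FPKM in the other wild-type libraries and 1.75 to 4.19 FPKM in the mutant.

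All 4 laminin chains compared were highest in the same library. *Lamb1*, the beta 1 chain, gave 2.16, 3.80, 15.7, 4.78, 5.38 and 6.61 FPKM in wild-type and 4.90, 1.72, 2.99, 5.17 and 2.86 FPKM in the mutant. *Lama5*, the alpha 5 chain of the mature vascular basement membrane, gave 0.234, 0.945, 1.68, 0.777, 0.833 and 0.863 FPKM and 0.683, 0.244, 0.417, 0.610 and 0.243 FPKM. *Lamb2*, the beta 2 chain, gave 0.635, 2.01, 2.81, 1.01, 1.19 and 1.10 FPKM and 0.948, 0.596, 0.734, 0.995 and 0.745 FPKM. Of these, *Lama5* and *Lamb2* had mutant libraries below all wild-type libraries but replicate 1, and *Lama2* was at most 0.128 FPKM in any library.

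The proteins that link the networks behaved alike. *Nid2*, nidogen 2, gave 1.97, 4.68, 11.3, 3.35, 4.45 and 4.71 FPKM in wild-type and 4.03, 1.48, 2.49, 4.05 and 2.24 FPKM in the mutant. *Hspg2*, the heparan sulfate proteoglycan perlecan, gave 1.15, 3.07, 7.20, 2.02, 2.45 and 3.39 FPKM and 2.32, 0.909, 1.05, 2.41 and 1.06 FPKM. *Cspg4*, the NG2 proteoglycan of pericytes, was high in replicates 2 and 3 alike, with 0.396, 1.81, 2.12, 0.499, 0.524 and 0.667 FPKM in wild-type and 0.614, 0.293, 0.374, 0.630 and 0.275 FPKM in the mutant. *Dcn* was at most 0.337 FPKM in wild-type and 0.218 FPKM in the mutant.

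Endothelial markers were highest in wild-type replicate 3 too. The 5 with a wild-type row (*Pecam1*, *Cdh5*, *Kdr*, *Esam* and *Flt1*) summed to 203.0 FPKM there, against 41.2 to 85.9 FPKM in the other wild-type libraries and 33.1 to 71.9 FPKM in the mutant, and each of the 5 was highest in that library. *Col4a1* divided by *Cdh5* was 1.27, 2.12, 1.21, 1.12, 1.16 and 1.2 in wild-type and 1.34, 1.35, 1.25, 1.25 and 1.27 in the mutant. Wild-type replicate 2 thus stood out in this ratio while replicate 3, with the highest level of both genes, did not. *Nid2*, *Hspg2* and *Col15a1* divided by *Cdh5* were also highest in replicate 2, at 0.314, 0.207 and 0.342, against 0.18, 0.115 and 0.187 in replicate 3. *Lamb1* divided by *Cdh5* differed, with 0.255 in replicate 2, 0.251 in replicate 3 and 0.181 to 0.242 in the other wild-type libraries. *Col4a1* divided by *Col4a2* ranged only from 1.05 to 1.25 over the 11 libraries, while *Col4a1* itself ranged over 6.2-fold. *Col1a2* divided by *Cdh5* was 0.329 in wild-type replicate 2 and from 0.0149 to 0.0520 in the other 10 libraries. The part of endothelial RNA in the basement membrane levels was not tested.

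**Figure D3:**
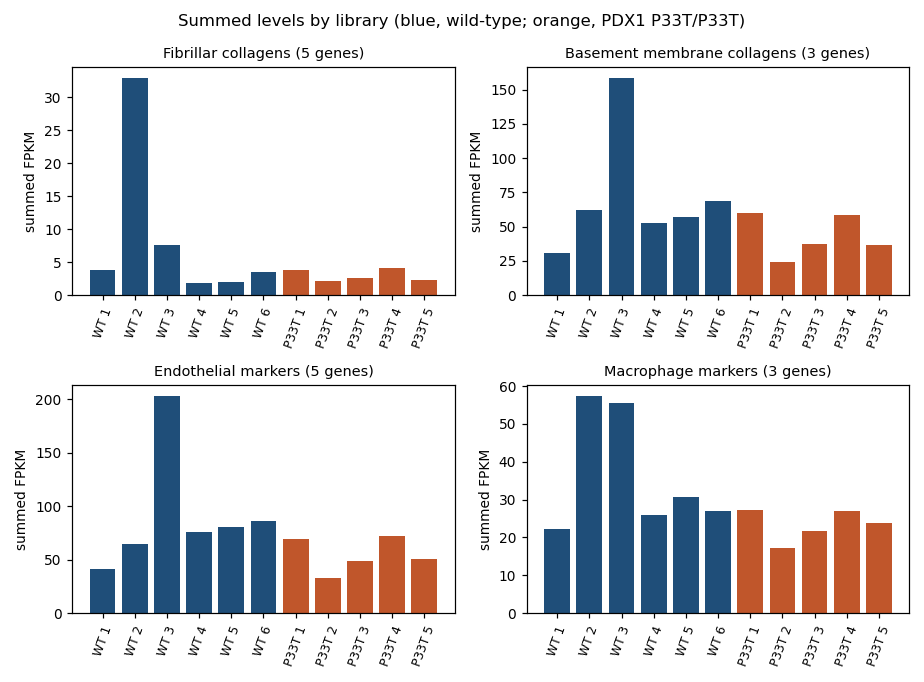
Summed FPKM by library, wild-type (WT) in blue and PDX1 P33T/P33T (P33T) in orange, for the fibrillar collagens, the basement membrane collagens, the endothelial and the macrophage markers that have a wild-type row. Fibrillar collagens peak at 32.9 FPKM in WT 2, basement membrane collagens at 158.2 FPKM and endothelial markers at 203.0 FPKM in WT 3, and macrophage markers are high in both.

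The study compared the genotypes to see what the mutation of PDX1 changes in islet RNA. None of the 19 genes passed limma's test (an adjusted p up to 0.05 together with a fold of 1.5 or more), where 0.0846% of all 4726 genes compared did, and adjusted p ran from 0.56 to 1. At an unadjusted limma p under 0.05 stood 4 of the 19, *Hspg2*, *Lama5*, *Lamb2* and *Col6a3*. Among all genes the share under 0.05 was 87.1% for those whose row came from the list of reads and 4.88% for those found by length and level. Of the 5 and 14 genes of the group found in these ways, 2 and 2 were under 0.05. With limma-voom on the recovered reads 0 passed as well and 3 were under 0.05. In that fit 85.6% of all genes found by reads were under 0.05 (1 of 5 of the group). The share was 6.19% of those found by length and level (2 of 14). The lowest adjusted p, 0.56 by limma, belonged to *Hspg2*, with a log2 fold change of −0.91 ± 0.40 (SE).

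Every gene of the group compared had a log2 fold change below 0, from −0.91 to −0.13, with a median of −0.62. Over all genes the share below 0 was 52.9% and the median −0.06, and the share was 58.7% for genes found by reads, as were 5 of the 19, and 49.6% for those found by length and level. By role, the medians were −0.61 for the 5 fibrillar collagens, −0.61 for the 3 basement membrane collagens, −0.67 for the 4 laminins, −0.81 for *Nid2* and *Hspg2* and −0.33 for *Fn1*, *Dcn* and *Postn*, with *Col6a3* at −0.42 and *Cspg4* at −0.83. These genes vary together across libraries, so the 19 signs are not 19 separate observations.

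The size of the difference depended on wild-type replicates 2 and 3. Without both, the median of the 19 was −0.23, 13 lay below 0 and 6 above, and the medians by role were 0.15 for the fibrillar collagens, −0.29 for the basement membrane collagens, −0.33 for the laminins and −0.44 for *Nid2* and *Hspg2*. The values below 0 ran from −0.53 ± 0.35 (SE) for *Hspg2* to −0.04 ± 0.17 for *Lama2* and included *Col5a2*, *Col6a3*, *Postn* and *Cspg4* beside the basement membrane genes. Those above 0 were *Col1a1*, *Col1a2*, *Col3a1*, *Col5a1*, *Fn1* and *Dcn*. Of the 19, wild-type replicate 2 was the highest wild-type library for 8 and replicate 3 for 11. Leaving out libraries picked as the highest tends to move the values up by itself, so the shift is no separate result. Leaving out wild-type replicate 1, the lowest wild-type library for the basement membrane, moved the median to −0.82 and put 11 of the 19 under an unadjusted limma p of 0.05, with 0 of them passing limma's adjusted test. The share of all genes under 0.05 was also higher there, at 47.3%, or 20.9% of those found by length and level (7 of 14 of the group) and 95.4% of those found by reads (4 of 5). Leaving out mutant replicate 2, which held the acinar RNA, gave −0.47 and 0 genes of the group under 0.05, against 21.0% of all genes.

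**Figure D4:**
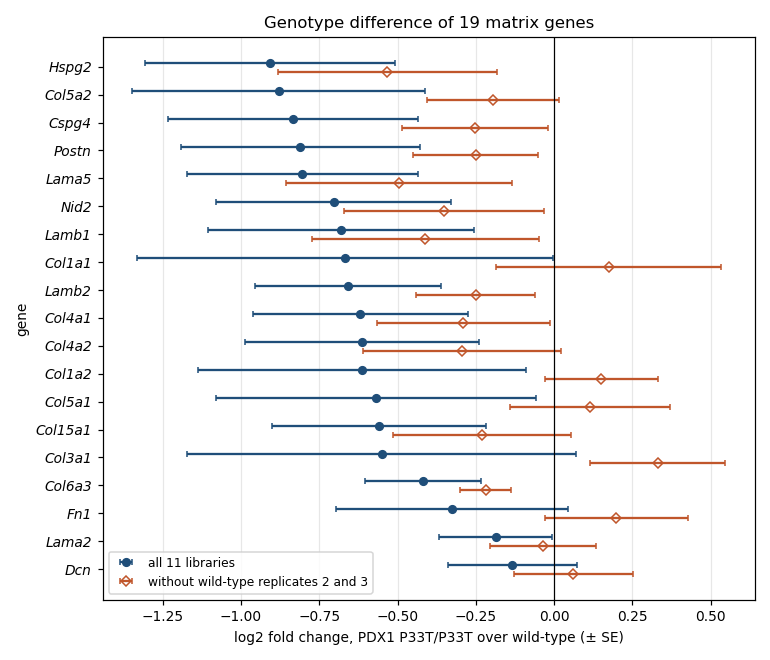
Log2 fold change of the 19 genes (PDX1 P33T/P33T over wild-type, log2(FPKM + 0.1) scale, bars are ± SE from limma) with all 11 libraries (filled) and without wild-type replicates 2 and 3 (open). All filled points lie left of 0, from −0.91 to −0.13, and 6 open points lie right of it.

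*Col6a3* was the 1 gene of the group whose libraries did not overlap between genotypes, being lower in the mutant in 5 of 5 libraries (2.57 ± 1.02 FPKM in wild-type, n = 6, and 1.81 ± 0.0869 FPKM in the mutant, n = 5). Among all genes compared, 2.54% were lower in the mutant without overlap, 6.58% of those whose row came from the list of reads, as here, and 0.327% of those found by length and level. The exact two-sided permutation test over 462 assignments gave p = 0.0043, the smallest it can give, and 0.089 after Benjamini-Hochberg adjustment over all genes compared. Its fold change was small, with a log2 value of −0.42 ± 0.19 (SE) and −0.22 without wild-type replicates 2 and 3. The gap between the groups was also narrow, from 1.89 FPKM in the highest mutant to 2.03 FPKM in the lowest wild-type library. No other gene of the group had an exact permutation p under 0.05, and *Lamb2* and *Hspg2* came next with 0.065 and 0.069 (exact permutation test, adjusted 0.16 and 0.17).

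Genes that act on the matrix were compared beside it, from lists chosen by function, and 0 of the 58 genes compared over 6 lists passed limma's test, with 17 of them under an unadjusted limma p of 0.05. By the way their rows were found, these were 16 of 25 from the list of reads (64%, against 87.1% of all genes found so) and 1 of 33 by length and level (3.03% against 4.88%), so neither share exceeded that of all genes. Of 20 genes for collagen processing and cross-linking, 7 were compared, 1 above and 6 below 0 with a median of −0.10. *P4hb*, the beta subunit of prolyl 4-hydroxylase and an abundant chaperone of the secretory pathway, stood at 431.6 ± 45.4 FPKM in wild-type and 470.9 ± 80.9 FPKM in the mutant, with *P3h1* and *P4ha2* at log2 fold changes of −0.08 and −0.06. All 7 of the 20 matrix proteases and inhibitors compared were below 0, with a median of −0.59, and all 7 were highest in wild-type replicate 3, among them *Mmp14*, a membrane-bound collagenase (−0.84), and the inhibitors *Timp3* (−0.65) and *Timp2* (−0.34). Of the 7 collagen processing genes, 3 were highest in wild-type replicate 2, *P4hb* among them with 507.3 FPKM, and 2 in replicate 3.

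Among 24 matrix receptors 13 were compared, 6 above and 7 below 0, with a median of −0.24. Among the 13 compared, the 3 receptors with the highest level had values above 0, *Ddr1*, a collagen receptor of epithelial cells, at 0.12, *Itgb1*, the common beta 1 integrin, at 0.10 and *Sdc4*, syndecan 4, at 0.25, with limma adjusted p from 0.50 to 1. *Itgb1* ranged from 33.97 to 49.9 FPKM over all 11 libraries, a narrow span beside that of its ligands. Of 23 genes of TGF-beta and PDGF signalling, 10 were compared with a median of −0.35, and the endothelial co-receptor *Eng* (−0.77), *Tgfb1* (−0.87) and the pericyte ligand *Pdgfb* (−0.79) were all highest in wild-type replicate 3.

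Further stromal genes showed 14 of 38 compared, all below 0 with a median of −0.62, 6 of them highest in wild-type replicate 2 and 6 in replicate 3. *Thbs1*, thrombospondin 1, reached 99.7 FPKM in replicate 3 against 12.7 to 52.3 FPKM in the other wild-type libraries, and its log2 fold change was −0.42. *Des*, desmin of contractile cells, had −0.74 and *Fstl1*, a secreted glycoprotein, −0.59. Of 20 further basement membrane genes 7 were compared, 1 above and 6 below 0 with a median of −0.36. *Smoc1*, a calcium-binding matrix protein, had −0.50, *Tinagl1* −0.71 and *Ntn4*, netrin 4, −0.05.

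Markers of the cells an islet preparation can hold were read in the same fit. The medians were −0.60 for 5 endothelial markers and −0.65 for 3 macrophage markers, with each of these 8 genes below 0, and *Cryab* had −0.89. The 6 endocrine genes had a median of 0.10, 4 above and 2 below 0, and the duct keratin *Krt7* had 0.14. *Ptprc* of leukocytes had −0.31, *Fabp4*, which capillary endothelium and adipocytes express, −0.69, and *Msln* of mesothelium 0.95. None of the 8 acinar markers had a wild-type row. The median of the 19 matrix genes (−0.62) thus lay beside those of the endothelial and the macrophage markers, and the part of either cell type in it was not tested.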

How the data were processed

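RNA-sequencing of whole islets from 6 wild-type and 5 PDX1 P33T/P33T libraries was re-analysed from the deposited FPKM. Per the labels and methods, the authors filtered reads (fastp 0.23.1), aligned them (HISAT2 2.0.5), counted them (featureCounts 1.5.0-p3) and expressed them as FPKM, and DESeq2 1.20.0 and the build GRCm39 are named in the submitters' processing notes. The annotation is not given in the sources used here, and whether the libraries kept strand is unclear, so overlapping and antisense genes are uncertain. A further 6070 rows named no gene and were left out. The per-library files hold the same values as the table. Of columns of other samples there were 0.

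FPKM times gene length gave whole reads once each library's scaling constant was known (19311937 to 37094286 fragments, an effective size and not a plain total). Most wild-type values stood on other genes' rows. A row was put back either by the reads of the part of the authors' supplementary gene list held here (1711 genes, 13 of them on their own row) or by recovered gene length, the smallest whole length from 20 to 130000 bases at which all values are whole reads, together with level. The latter needed group means within 4-fold, no rival row of equal length within 16-fold, at least 100 reads in each group and a value in at least 5 wild-type libraries. Of 402 genes placed both ways, 402 went to the same row. In all 4765 of 19329 gene IDs (24.7%) were put back, 39 of them listed at 0 in the mutant and left out, so 4726 entered the fit.

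The genotypes were compared with limma 3.58.1 (R 4.3.3) after adding 0.1 to each FPKM and taking log2, with the empirical Bayes options trend and robust, no covariates, two-sided, with Benjamini-Hochberg adjustment over all 19329 gene IDs, genes without a wild-type row counting as unchanged. A fold change on this scale understates the change of low genes. For single genes an exact permutation test (two-sided, 462 assignments) was added, with adjustment over the 4726 genes compared only. All p-values measure the spread between libraries. The limma fit and the row matching were tested on simulated data, and limma-voom and the permutation test were not. Python 3.11.15 with numpy 2.4.6, pandas 2.3.3 and matplotlib 3.10.9 made tables and plots.

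The genes and lists were chosen with earlier results of these data known. All 34 genes are named. Of each other list, the 3 with the highest mean FPKM among those with a wild-type row are named, plus any that passed the test. A result on 1 marker list is not reported here. Symbols came from a table of gene IDs, which held all of them, and promoters from RefSeq (GRCm38.p6). Libraries were compared in pairs, and the chi-square per degree of freedom of the recovered reads was at least 5.52, so none was a copy of another. Alternatives covered the pseudocount, a filter on low values, scaling, the test's options, limma-voom on the recovered reads, the adjustment, the fold threshold, the row rules, the replicate block and leaving out libraries.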

Additional observations from a re-analysis of the deposited data

Results flagged for a closer look

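In 12 of 52 groups of libraries examined (a gene within a genotype), 1 library lay farther from the rest than Dixon's 95% limit for groups of 5 or 6. The limit was applied to FPKM and not to log2 values, and its rate of about 1 in 20 holds for normally distributed values only. The 12 of 52 therefore cannot be set against that rate. The genes of a role vary together, so these are not separate events. All 12 were wild-type groups with a high library.

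Wild-type replicate 2 was the high library for *Col1a1* (13.6 FPKM, the others up to 2.23), *Col1a2* (4.90 FPKM, up to 1.47), *Col3a1* (8.33 FPKM, up to 1.69), *Col5a1* (1.96 FPKM, up to 0.502), *Col5a2* (4.09 FPKM, up to 1.77) and *Col6a3* (4.64 FPKM, up to 2.28).

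Wild-type replicate 3 was the high library for *Col4a1* (75.9 FPKM, the others up to 32.7), *Col4a2* (70.6 FPKM, up to 31.0), *Col15a1* (11.7 FPKM, up to 5.09), *Lamb1* (15.7 FPKM, up to 6.61), *Nid2* (11.3 FPKM, up to 4.71) and *Hspg2* (7.20 FPKM, up to 3.39).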

How the results depend on the processing

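The count of genes of the group that passed limma's test was 0 under all alternatives run. Their median log2 fold change ran from −0.82 (without wild-type replicate 1) to −0.44 (without wild-type replicate 3) with 1 library left out, and was −0.23 without wild-type replicates 2 and 3. The number of genes called over the whole fit was 4, and 3 to 8 with 1 library left out (8 without wild-type replicate 1). It was 7 with limma-voom on recovered reads, 7 with means within 8-fold, 13 when adjusted over the genes in the fit, 2 with a log2 change of 1.5 or more in size, and 7 without wild-type replicate 3 and mutant replicate 2, an alternative chosen after seeing the data.

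Replicate numbers in the titles did not pair the libraries, since the correlation of their deviations from the group means ran from −0.59 to 0.12. With a replicate block by these numbers 1 gene was called over the whole fit and 0 of the group, with a median of −0.69 for the group. By the library names' numbers 3 were called, with a median of −0.44.

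Of 445 values for single genes of the group under an alternative, 437 kept their sign and stayed short of the threshold and 8 reversed. Without wild-type replicates 2 and 3 these were *Col1a1* (0.17), *Col1a2* (0.15), *Col3a1* (0.33), *Col5a1* (0.12), *Fn1* (0.20) and *Dcn* (0.061). The others were *Col3a1* without wild-type replicate 2 (0.025, with −0.81 as its lowest value with 1 library left out, that without wild-type replicate 5) and *Fn1* without wild-type replicate 3 and mutant replicate 2 (0.030). The lowest genes, *Lama2*, *Dcn*, *Lum* and *Pdgfra*, rest on 27 to 152 mutant reads each, which limits what their values can show.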

Other observations

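Among the markers whose log2 fold change is given here, *Ngfr* had the largest in size. It encodes the low-affinity nerve growth factor receptor of Schwann and some stromal cells. It gave 0.772, 3.66, 1.28, 1.07, 1.15 and 1.12 FPKM in wild-type replicates 1 to 6 and 0.615, 0.294, 0.297, 0.695 and 0.315 FPKM in the mutant replicates 1 to 5, so the groups did not overlap. The gap was narrow, from 0.695 FPKM in the highest mutant to 0.772 FPKM in the lowest wild-type library. The log2 fold change of *Ngfr* was −1.45 ± 0.34 (SE), with a limma adjusted p of 0.46 and an exact permutation p of 0.0043, the smallest possible. Among all genes compared, 2.54% were lower in the mutant without overlap. The share was 6.58% of those whose row came from the list of reads and 0.327% of those found by length and level. *Ngfr* was named for its level among Schwann markers and singled out after its values were seen. The paper already lists it among its significantly downregulated genes, so it is no separate finding.

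*Msln*, mesothelin of the cells that line the peritoneum, went the other way, with 5.71 ± 2.69 FPKM in wild-type (n = 6) and 10.2 ± 1.44 FPKM in the mutant (n = 5). Its log2 fold change was 0.95, with an exact permutation p of 0.017 and a limma adjusted p of 0.50. Wild-type replicate 1, with 10.3 FPKM, lay among the mutant libraries.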
